A study of Mus musculus with 39 samples.

Results

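Pancreatic islets of mice at pregnancy day 18.5, near the end of gestation, were compared with islets of non-pregnant mice. The comparison rests on 4 arrays per group, 8 of the 39 arrays in the series, chosen by the pregnancy day or the non-pregnant state that the labels give. All 8 arrays measured total RNA of whole islets from wild-type C57bl6/J mice, and the non-pregnant mice are labelled female. The replicates are labelled biological, but the age of the mice and any pooling of animals are not given in the sources used here. For context, day 18.5 was also set against mid-pregnancy (days 9.5, 12.5 and 15.5, 12 arrays) and against 10 days post partum (4 arrays) of the same strain. On the platform, the Affymetrix Mouse Gene 1.0 ST array, each of 19938 genes was represented by 1 probe set, the one with the highest mean over all arrays. Values are log2 expression values, so a difference of 1 is a 2-fold change. Differences are given as day 18.5 minus the other group with their standard error (SE), and a gene rose or fell where limma's p, adjusted over all genes, was under 0.05.

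Islets are clusters of endocrine cells in which insulin-secreting beta cells are the most numerous in mice. During pregnancy the mother becomes insulin resistant, and mouse islets respond by proliferation of beta cells and by more insulin secretion. Placental lactogen and prolactin drive much of this response through receptors that activate JAK2 and the transcription factor STAT5, and serotonin made inside beta cells is known as a downstream signal.

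The arrays carried the genes that define islets. Ins2 lay at 12.7 on all 4 day 18.5 arrays, and Iapp, Gcg and Sst lay between 13.3 and 13.9 there. Non-pregnant replicate 1 stood apart at the bright end: its highest value was 13.3, whereas the other 38 arrays reached 14.2 or more, and its Ins2, Iapp, Gcg and Sst values were lower than on the other non-pregnant arrays, so hormone results are given with and without it. Acinar markers, which come from exocrine tissue attached to islets, were present in both groups, with a mean level over 26 genes of 7.17 to 8.90 on non-pregnant arrays and 7.88 to 9.17 at day 18.5. The spread of values within an array was wider at day 18.5 (SD over genes 1.85 to 1.91) than in non-pregnant islets (1.76 to 1.84), without overlap. The shift depended on brightness: in the brightest 25% of genes 21.8% rose and 2.59% fell with a median difference of 0.10, whereas in the dimmest 25% 0.522% rose and 1.32% fell. With each array's SD as a covariate the brightest 25% had 410 rises and 252 falls in place of 1088 and 129. In whole islets, more cells of a type and more RNA per cell cannot be told apart.

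At day 18.5, 2210 of 19938 genes (11.1%) differed from non-pregnant islets. Of these, 1712 rose (8.59% of all genes tested) and 498 fell (2.5%). Most differences were small: 79 rises (0.396%) and 4 falls (0.0201%) reached 2-fold, and the median over all genes was 0.00. The 4 arrays of each group did not overlap for 2176 genes (10.9% of those tested), of which 1588 were called (7.96%). Quantile normalization turned the balance of calls to 1056 rises and 820 falls, centring each array on its median gave 1964 and 222 with the median of all genes at 0.05, and the array SD as a covariate gave 716 rises and 458 falls. Without day 18.5 replicate 4 the calls numbered 1433.

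**Figure D1:**
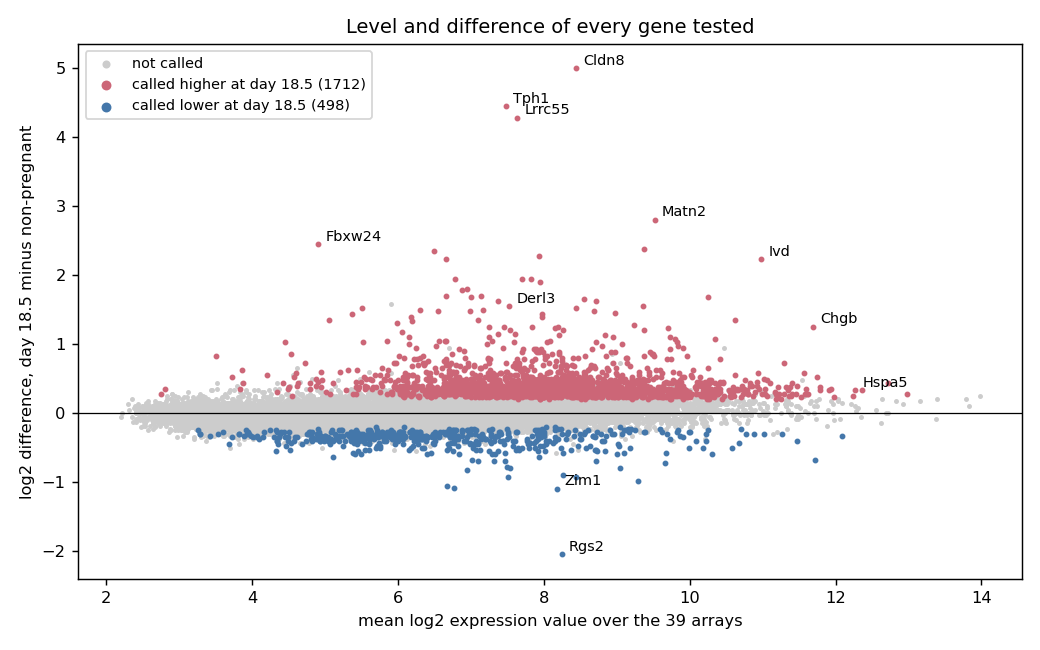
Each point is 1 of 19938 genes, with its mean log2 expression value over the 39 arrays on the x axis and its log2 difference, day 18.5 minus non-pregnant, on the y axis; red genes were called higher (1712), blue genes called lower (498). Cldn8, Tph1 and Lrrc55 stand above all others at differences of 5.0, 4.45 and 4.28, and the falls reach no lower than Rgs2 at -2.05.

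The largest rises were in 3 genes that non-pregnant islets had at low values. Cldn8 (chr16:88560826-88563183, GRCm38.p6), which encodes the tight junction protein claudin 8, read 5.3, 5.6, 5.4 and 6.0 in non-pregnant islets and 10.6, 10.5, 10.5 and 10.7 at day 18.5. That is a difference of 5.0 (SE 0.18, adjusted p = 1.13e-19), or 32-fold. No other claudin moved on that scale: of 26 measured tight junction and adhesion genes only Cldn7 also rose, by 0.33, while Cldn15, Gjd2 and Cgn fell by 0.28, 0.30 and 0.35. Of these 3 falls 1 was left without day 18.5 replicate 1, 3 or 4 or with the array SD as a covariate, and none with arrays centred on their medians, and without day 18.5 replicate 2 the list had 4 rises.

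Lrrc55 (chr2:85188067-85198750), an auxiliary subunit of calcium-activated BK potassium channels, went from 5.2, 5.3, 5.3 and 5.4 to 9.6, 9.7, 9.6 and 9.4. The difference was 4.28 (SE 0.17, adjusted p = 3.55e-18), or 19.4-fold. The channel's pore gene Kcnma1 showed a difference of 0.00 (SE 0.08) and was not called, and the related subunit gene Lrrc52 fell by 0.25. Tph1, described with the serotonin genes, was the other of the 3.

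Matn2, which encodes the extracellular matrix protein matrilin 2, read 7.5, 7.5, 7.4 and 7.9 in non-pregnant islets against 10.3, 10.3, 10.4 and 10.5 at day 18.5. The arrays were far apart and the difference was 2.80 (SE 0.12, adjusted p = 2.97e-17). Tmem255a, an X-linked gene of a membrane protein, rose by 2.38 (SE 0.13), and Neb, the gene of the giant muscle filament protein nebulin, rose by 2.23 (SE 0.11). Igfbp5, a secreted binding protein of insulin-like growth factors, read 6.7, 7.0, 6.9 and 7.0 in non-pregnant islets and 8.7, 9.0, 9.0 and 8.7 at day 18.5, a rise of 1.95 (SE 0.14, adjusted p = 2.3e-12). Of 7 measured Igfbp genes it was the only one called, and the others lay between -0.28 and 0.10.

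Fbxw24, an F-box and WD40 gene on chromosome 9 (chr9:109601116-109626059), went from 3.5, 4.0, 3.5 and 3.7 to 6.2, 6.0, 6.2 and 6.1. This was a rise of 2.45 (SE 0.18, adjusted p = 9.29e-12) from near the bottom of the array's range. It belongs to a cluster of related genes, and its neighbour Fbxw15 rose by 0.63 (SE 0.12), while Fbxw22, Fbxw18 and Fbxw26 in that cluster were not called. Whether the probes tell these relatives apart is not given in the sources used here. The same caution holds for Gbp8, an interferon-inducible guanylate-binding protein gene, which rose by 1.95 (SE 0.18), and its relative Gbp11, which rose by 1.43 (SE 0.14). The other 6 measured Gbp genes were not called (-0.13 to 0.33), and of 20 measured interferon response genes none was called.

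Lrrc8c, a subunit of volume-regulated anion channels, rose by 1.90 (SE 0.21) from 6.9, 7.3, 7.3 and 7.1 to 8.9, 8.9, 9.1 and 9.3. The obligatory subunit gene of these channels, Lrrc8a, differed by 0.13 and was not called, whereas Lrrc8b and Lrrc8d rose by 0.25 and 0.30. Lonrf3, a RING finger gene, rose by 1.80 (SE 0.15). All 15 of the largest rises stayed called under every alternative processing in which they were tested. Fbxw24 was not tested where the dimmest 25% of genes were left out.

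**Figure D2:**
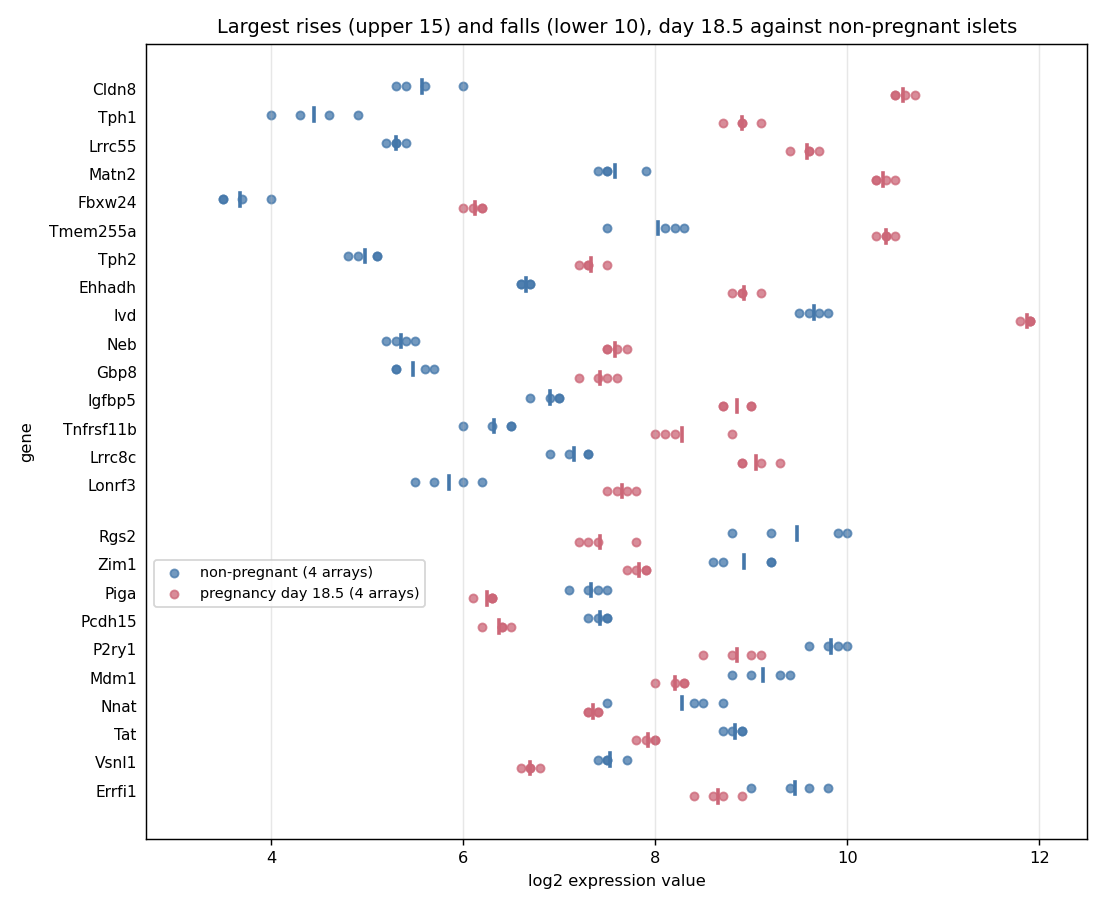
Log2 expression values (x axis) of the 15 largest rises and 10 largest falls (rows) among called genes whose arrays do not overlap; each point is 1 array, blue for non-pregnant and red for day 18.5, and vertical bars are group means of 4 arrays. In Cldn8 the groups lie 5.0 apart, and in Errfi1, the last row, 0.80 apart, with 9.0 the lowest non-pregnant and 8.9 the highest day 18.5 value.

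The falls were smaller and led by a signalling gene. Rgs2, which shortens signalling by Gq-coupled receptors, read 8.8, 9.9, 10.0 and 9.2 in non-pregnant islets and 7.4, 7.2, 7.3 and 7.8 at day 18.5. The difference was -2.05 (SE 0.27, adjusted p = 1.59e-06), a 4.14-fold fall, and the non-pregnant arrays varied more among themselves than those of day 18.5. Rgs16, of the same family, fell by 0.55 (SE 0.11), and the other 18 measured numbered Rgs genes were not called (-0.28 to 0.23). P2ry1, a receptor for ADP that couples to Gq, fell by 0.98 (SE 0.16) from 9.6, 9.8, 10.0 and 9.9 to 8.8, 8.5, 9.1 and 9.0.

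Other falls included Piga, which starts the synthesis of GPI anchors (-1.08, SE 0.11), and Pcdh15, a protocadherin (-1.05, SE 0.09). Tat, the liver-type tyrosine aminotransferase, fell by 0.90 (SE 0.09), and Vsnl1, a neuronal calcium sensor, fell by 0.83 (SE 0.10). Errfi1, a feedback inhibitor of the EGF receptor, fell by 0.80 (SE 0.16), and Mdm1, a microtubule-binding protein of centrioles, by 0.93 (SE 0.14). Zim1 and Nnat, the remaining 2 of the 10, are imprinted genes, expressed from 1 parental copy. Zim1 read 9.2, 9.2, 8.7 and 8.6 against 7.7, 7.9, 7.9 and 7.8 (-1.10, SE 0.12), and Nnat, which encodes neuronatin, fell by 0.93 (SE 0.16). Of 22 measured imprinted genes 5 fell, the others being Usp29, Sgce and Peg3 at -0.45, -0.30 and -0.30, and Igf2r rose by 0.33. With arrays centred on their medians, 3 of the 22 fell.

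In the lactogen and STAT5 pathway 7 genes rose, among them 2 feedback inhibitors. Cish and Socs2, which STAT5 switches on and which then dampen the receptor, both rose. Cish read 8.7, 8.7, 8.5 and 7.9 in non-pregnant islets against 9.9, 10.0, 10.1 and 10.0 at day 18.5, a difference of 1.55 (SE 0.20, adjusted p = 8.24e-07). Socs2 read 8.6, 8.5, 8.6 and 8.3 against 9.7, 9.7, 9.8 and 9.9, a difference of 1.28 (SE 0.11, adjusted p = 3.84e-10). In both genes every day 18.5 array lay above every non-pregnant one.

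Tnfrsf11b, which encodes osteoprotegerin, a soluble decoy for RANK ligand, rose by 1.95 (SE 0.16) from 6.5, 6.0, 6.3 and 6.5 to 8.1, 8.0, 8.2 and 8.8. Igfals, a carrier of insulin-like growth factors, rose by 0.98 (SE 0.09). Those of the pathway's own components that were measured differed little. The growth hormone receptor gene Ghr differed by -0.08, Jak2 by 0.00 and Stat5a by -0.18, none of them called. The prolactin receptor gene Prlr was not among the genes measured here. Stat5b was called lower by 0.20, with an adjusted p of 0.0494 that 12 alternatives moved past the threshold. The other rises were Stat3 by 0.33 and the phosphatase genes Ptpn6 and Ptpn11 by 0.28 and 0.23. Of the 24 measured genes of the list 7 rose and 1 fell, beside 8.59% of all genes rising and 2.5% falling. Of the 24, 14 were among the 4985 brightest genes, of which 21.8% rose. Under quantile normalization 5 rose and 2 fell, and with the array SD as a covariate 5 rose and 1 fell. The median difference of the 24 was 0.04, against 0.00 over all genes. Socs1, Socs3 and Bcl6 were not called.

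Promoters of Cish and of Ivd, a leading rise described with the metabolic genes, are shown because each holds the element that STAT5 dimers are known to bind, TTCNNNGAA, written here in capitals. Both are RefSeq sequences of GRCm38.p6 from 250 bases before to 50 after the gene's start.
Cish promoter, chr9:107296409-107296708, plus strand: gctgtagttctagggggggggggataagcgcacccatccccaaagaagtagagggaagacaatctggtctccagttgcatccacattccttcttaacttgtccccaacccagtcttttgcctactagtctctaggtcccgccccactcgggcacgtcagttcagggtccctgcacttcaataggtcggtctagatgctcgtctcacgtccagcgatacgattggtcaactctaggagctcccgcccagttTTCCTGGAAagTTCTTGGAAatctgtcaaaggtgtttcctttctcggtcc
Ivd promoter, chr2:118861744-118862043, plus strand: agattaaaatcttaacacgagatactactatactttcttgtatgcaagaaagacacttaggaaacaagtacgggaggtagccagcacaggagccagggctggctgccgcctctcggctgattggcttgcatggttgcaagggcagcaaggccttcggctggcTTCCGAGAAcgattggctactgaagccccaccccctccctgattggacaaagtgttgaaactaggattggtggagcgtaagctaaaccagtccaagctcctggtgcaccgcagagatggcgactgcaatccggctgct
Cish has 2 such matches next to each other and Ivd has 1. Both strands were searched, and since the element reads nearly the same on either strand each place was counted 1 time. Of 32851 promoters of this length in the table, 8.3% held a match, as did 4 of the 18 lactogen pathway genes with a promoter entry (Bcl6, Cish, Igfals and Socs3) and 1 of 10 among the largest rises. A match is a description of these letters and no sign of binding.

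RNA of the genes for the first, rate-limiting step of serotonin synthesis rose. Tph1 (chr7:46644641-46672537), the tryptophan hydroxylase of peripheral tissues, read 4.0, 4.3, 4.6 and 4.9 in non-pregnant islets and 8.9, 8.9, 8.7 and 9.1 at day 18.5. The difference was 4.45 (SE 0.22, adjusted p = 3.22e-16). It is not given as a fold, since the non-pregnant values lie in the range of the dimmest 25% of genes (mean up to 4.93) and were not shown to be above background. Tph2, the form used by neurons, read 5.1, 4.8, 5.1 and 4.9 against 7.3, 7.3, 7.2 and 7.5, a difference of 2.35 (SE 0.13, adjusted p = 1.2e-14). In neither gene did the groups come within 2 log2 units of each other.

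Of 12 measured genes of serotonin synthesis, storage and breakdown 4 rose, beside 8.59% of all genes. Of the 12, 6 were among the 4985 brightest genes, of which 21.8% rose. Under quantile normalization 3 rose and 1 fell, and with the array SD as a covariate 3 rose. Genes of the steps after hydroxylation moved less. Slc18a1, a vesicular transporter that loads serotonin into granules, rose by 0.65 (SE 0.10) from 7.2, 7.2, 7.2 and 7.1 to 7.9, 7.6, 7.8 and 8.0. Ddc, which makes serotonin from 5-hydroxytryptophan and was already at 10.50 in non-pregnant islets, rose by 0.28 (SE 0.08, adjusted p = 0.0218), a call that 7 alternatives ended. The other vesicular transporter gene Slc18a2, the uptake transporter gene Slc6a4 and the degrading enzymes Maoa and Maob differed by 0.08, -0.08, 0.23 and -0.10 and were not called. Of 14 measured serotonin receptor genes none was called: Htr2b read 4.3, 4.5, 4.4 and 4.6 against 4.4, 4.5, 4.2 and 4.5, Htr1d differed by 0.13 (SE 0.09) and Htr3a by 0.30 (SE 0.17).

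Genes of the secretory pathway rose together in small steps. The endoplasmic reticulum (ER) imports, folds and inspects insulin and other secreted proteins before COPII vesicles carry them to the Golgi. Of 28 measured genes for import into the ER and signal peptide removal 22 rose and none fell (median 0.31). Of 29 chaperones and disulfide enzymes 20 rose (median 0.30), of 17 genes of ER-associated degradation 9 rose (median 0.28), and of 33 genes of COPII and COPI transport 20 rose (median 0.30). None of these lists had a member that fell.

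The steepest rise of the group was in Derl3, a channel component that returns misfolded proteins to the cytosol, which read 6.6, 6.7, 6.5 and 6.6 against 8.2, 8.0, 8.1 and 8.3. Its difference was 1.55 (SE 0.09, adjusted p = 6.78e-14). Edem1 and Edem2, which mark misfolded glycoproteins for degradation, rose by 0.98 (SE 0.08) and 0.78 (SE 0.08), and their partner Sel1l by 0.53 (SE 0.07). Among chaperones, the prolyl isomerase gene Fkbp11 rose by 0.93 (SE 0.08), Sdf2l1 by 0.65 (SE 0.09) and Dnajb11 by 0.63 (SE 0.10). Hspa5, the most abundant ER chaperone (BiP), moved less, from between 11.9 and 12.1 on the non-pregnant arrays to between 12.3 and 12.4, a difference of 0.33 (SE 0.07, adjusted p = 0.00225).

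In the import and transport lists the largest rises were Dad1 of the oligosaccharyltransferase (0.55, SE 0.07), Srprb of the signal recognition particle receptor (0.55, SE 0.08), the cargo receptor subunit gene Mcfd2 (0.65, SE 0.08) and the vesicle coat cargo gene Tmed3 (0.63, SE 0.09). Sensors and transcription factors that control the ER also rose. Ern1, which encodes the sensor IRE1, read 9.2, 9.2, 9.3 and 9.3 against 10.4, 10.2, 10.4 and 10.4 (1.10, SE 0.09, adjusted p = 3.16e-11), and Xbp1, the factor whose RNA IRE1 splices, rose by 0.33 (SE 0.08). Of 9 genes of the IRE1 and ATF6 arms 6 rose. Of 24 genes of the PERK and ATF4 arm 12 rose, led by Nupr1 (1.13, SE 0.17) and Aldh1l2 (1.03, SE 0.13), while Atf4, Ddit3 and Atf3 themselves differed by 0.15, 0.18 and -0.10 and were not called. Of 18 aminoacyl-tRNA synthetases, which charge tRNAs for translation, 12 rose, and Hars rose most (0.68, SE 0.10).

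Most members of these lists are bright, 27 of the 28 import genes lying in the brightest 25% of all genes, and their counts moved with the scaling of the arrays. Under quantile normalization 12 import genes, 14 chaperones, 6 degradation genes and 10 transport genes rose, with 1 fall in each of the import, chaperone and transport lists. With the array SD as a covariate the rises were 10, 10, 6 and 8, and 1 transport gene fell. The same 2 settings left 2 and 1 rises in the IRE1 and ATF6 arms, 9 and 6 in the PERK arm, and 5 and 3 among the synthetases, and without day 18.5 replicate 4 the PERK arm had 7. The medians kept their sign with the covariate, at 0.23 for import, 0.20 for chaperones, 0.17 for degradation and 0.18 for transport. Derl3, Edem1, Ern1 and Fkbp11 stayed called under every alternative. Bhlha15, an acinar transcription factor gene (also known as Mist1) that acts in secretory cells, rose by 0.80 (SE 0.16), the only one of 26 acinar markers to do so.

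Promoters of Hspa5, Dnajb11 and Derl3 are shown because they hold the ER stress response element in 1 of its forms, searched on both strands and written in capitals. The form ERSE is CCAAT and CCACG with 9 bases of any kind between them, and ERSE-II is ATTGG and CCACG with 1 base between them. The promoters come from RefSeq, GRCm38.p6, over the same 300 bases.
Hspa5 promoter, chr2:34771840-34772139, plus strand: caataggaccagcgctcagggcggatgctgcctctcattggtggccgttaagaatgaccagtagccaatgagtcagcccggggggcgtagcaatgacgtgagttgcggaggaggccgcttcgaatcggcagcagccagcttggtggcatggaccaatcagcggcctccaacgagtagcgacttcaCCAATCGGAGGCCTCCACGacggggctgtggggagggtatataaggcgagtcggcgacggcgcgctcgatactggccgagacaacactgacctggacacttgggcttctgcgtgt
Dnajb11 promoter, chr16:22857595-22857894, plus strand: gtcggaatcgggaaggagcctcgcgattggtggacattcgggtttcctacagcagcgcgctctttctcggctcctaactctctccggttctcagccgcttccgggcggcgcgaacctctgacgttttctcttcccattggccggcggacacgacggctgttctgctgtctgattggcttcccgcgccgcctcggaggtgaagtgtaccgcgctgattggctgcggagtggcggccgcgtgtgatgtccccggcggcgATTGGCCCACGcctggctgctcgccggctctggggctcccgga
Derl3 promoter, chr10:75893148-75893447, plus strand: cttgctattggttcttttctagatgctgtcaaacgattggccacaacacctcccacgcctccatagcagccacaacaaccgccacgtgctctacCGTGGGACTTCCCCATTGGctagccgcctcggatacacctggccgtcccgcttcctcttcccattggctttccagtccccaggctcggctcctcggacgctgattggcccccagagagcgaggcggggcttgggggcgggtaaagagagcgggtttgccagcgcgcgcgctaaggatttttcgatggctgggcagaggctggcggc
In Derl3 the match runs on the minus strand. Either form was present in 0.155% of the 32851 promoters. It was present in 9 of 26 chaperone genes with a promoter entry and in 3 of 16 degradation genes, and in none of 20 import and 30 transport genes. Among the chaperone and degradation genes together, 6 of 25 that rose and 6 of 17 that did not pass the test held a match.

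**Figure D3:**
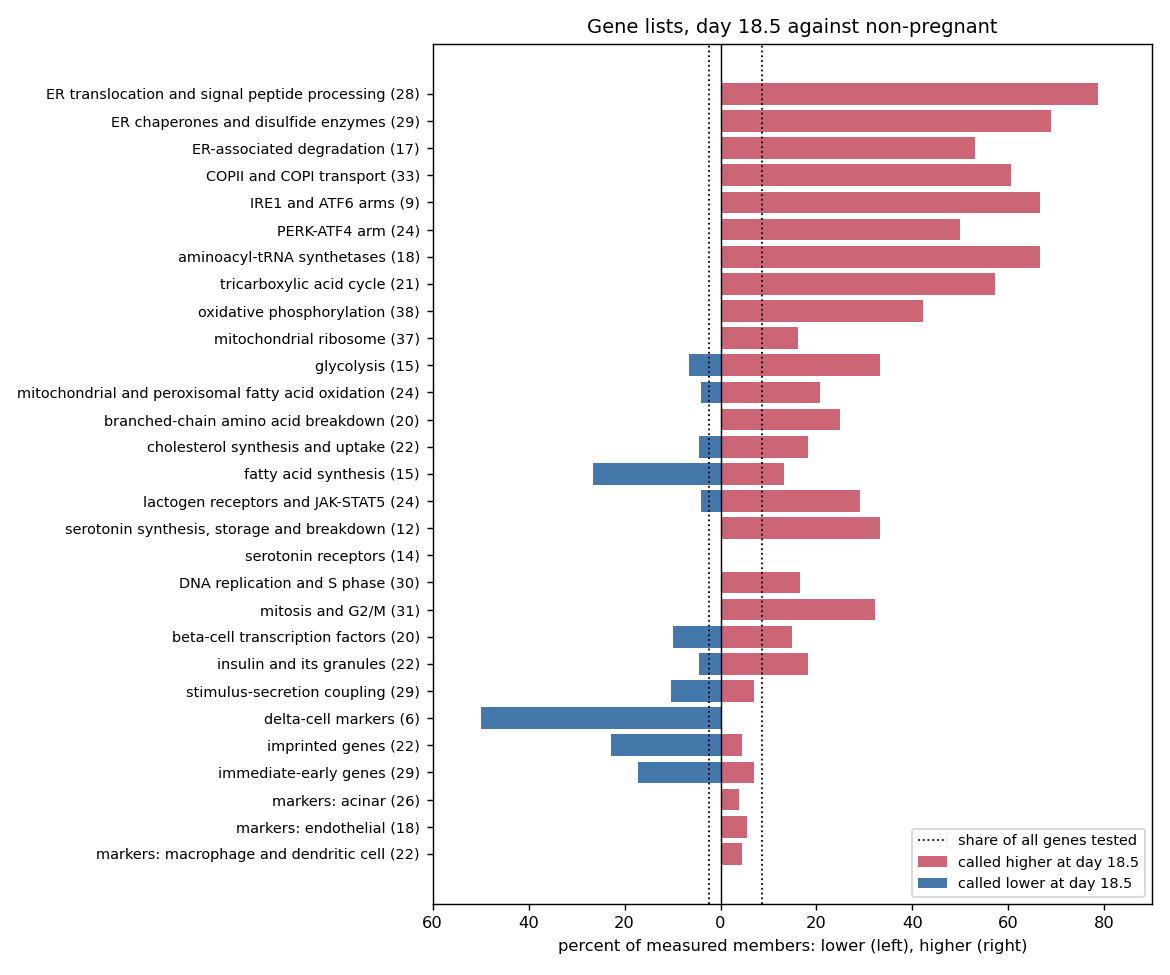
Bars give the percent of each gene list's measured members (number in brackets) that were called higher (red, right) or lower (blue, left) at day 18.5 than in non-pregnant islets; dotted lines mark the shares of all genes tested, 8.59% higher and 2.5% lower. Import into the ER stands highest with 22 of 28, and serotonin receptors have no bar.

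Metabolic genes rose at particular steps. Of all genes 8.59% rose and 2.5% fell, and of the 4985 brightest genes 21.8% rose and 2.59% fell. Among those brightest genes were 17 of the 24 measured members of fatty acid oxidation. Ehhadh, the bifunctional enzyme of peroxisomal fatty acid oxidation, read 6.6, 6.7, 6.7 and 6.6 against 8.8, 8.9, 8.9 and 9.1. Its difference was 2.28 (SE 0.10, adjusted p = 3.73e-17). The rest of fatty acid oxidation followed little: 5 of 24 members rose and 1 fell, with Hadhb at 0.38 next in size and Cpt1a, Acadm and Acaa1a not called. With the array SD as a covariate 1 member rose, and under quantile normalization 3.

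Ivd, which oxidises isovaleryl-CoA in leucine breakdown, read 9.7, 9.6, 9.5 and 9.8 against 11.8, 11.9, 11.9 and 11.9, a difference of 2.23 (SE 0.10, adjusted p = 2.63e-17). It was 1 of 5 members of branched-chain amino acid breakdown to rise of 20 measured. Of these 20, 15 were among the 4985 brightest genes, of which 21.8% rose, so the count alone does not set the pathway apart. Bckdk, the kinase that shuts the pathway's committed step, rose by 0.55 (SE 0.08) and Bckdhb by 0.40 (SE 0.09), while Bckdha, Mccc1 and Mccc2 were not called. With the array SD as a covariate 2 of the 20 rose, and leaving out the dimmest genes, the trend and robust setting and array weights gave 9, 8 and 9.

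In mitochondria 12 of 21 genes of the tricarboxylic acid cycle rose (median 0.28), among them Suclg1 (0.53, SE 0.09), Ogdh (0.35, SE 0.06) and Pcx (0.33, SE 0.06). Ogdhl, a relative of Ogdh outside that list that was picked after its value was seen, went from 9.6, 9.5, 9.6 and 9.4 to 11.1, 11.1, 11.3 and 11.3 (1.68, SE 0.10). Of 38 nuclear genes of oxidative phosphorylation 16 rose (median 0.23), with Ndufa4 at 0.48 (SE 0.07). Under quantile normalization and with the array SD the cycle kept 4 rises each time, and the respiratory chain 8 and 3. Without day 18.5 replicates 1 or 4 or non-pregnant replicate 4, the respiratory chain had 8, 10 and 9.

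Lipid synthesis was mixed. Of the 22 measured cholesterol genes 13 were among the 4985 brightest genes, of which 21.8% rose and 2.59% fell. In cholesterol synthesis, Dhcr7, which makes the final step to cholesterol, rose by 1.23 (SE 0.10) from 7.6, 7.5, 7.5 and 7.3 to 8.7, 8.7, 8.6 and 8.8. Sqle and Ebp rose by 0.53 each and Lss by 0.28, the efflux pump gene Abca1 fell by 0.45, and the other 17 of 22 were not called. In fatty acid synthesis 2 of 15 genes rose and 4 fell. The falls numbered 2 with median centring and without day 18.5 replicate 1, non-pregnant replicate 1 or non-pregnant replicate 3. The desaturase gene Fads1 rose by 0.88 (SE 0.07) while its neighbour Fads2 fell by 0.40 (SE 0.10). Mlxipl, the glucose-sensing factor ChREBP, fell by 0.50 (SE 0.11), and Fasn, Acly and Acaca were not called.

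Genes of beta-cell identity and insulin release moved in both directions, beside 8.59% of all genes rising and 2.5% falling. Neither the insulin gene Ins2 nor the amylin gene Iapp passed the test. The other mouse insulin gene, Ins1, was not among the genes measured here. Ins2 read 11.9, 12.7, 12.7 and 12.7 in non-pregnant islets and 12.7 on every day 18.5 array (difference 0.20, SE 0.10, adjusted p = 0.212), and without non-pregnant replicate 1 the difference was 0.00 (SE 0.06). Iapp differed by 0.20 (SE 0.11), and by -0.02 (SE 0.06) without that array. Both genes lie near the top of the array's range, where probes respond less to a change.

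Among 22 genes of insulin and its granules 4 rose and 1 fell. Chgb, a granule protein also named secretogranin 1, read 10.8 to 11.1 on the non-pregnant arrays against 12.2, 12.2, 12.2 and 12.3, a difference of 1.25 (SE 0.08, adjusted p = 5.13e-13). Its relative Chga differed by 0.18 (SE 0.09) and was not called. Pcsk1, the convertase that cuts proinsulin, rose by 0.53 (SE 0.07) and Rab3a by 0.48 (SE 0.08). Slc30a8, the zinc transporter of insulin granules, fell by 0.33 (SE 0.09), although its arrays overlapped. Of the 22, none fell without non-pregnant replicate 2 or 3, 2 fell without non-pregnant replicate 1, and 4 fell under quantile normalization.

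Of 20 beta-cell transcription factors 3 rose and 2 fell. Ovol2, a repressor of mesenchymal genes, rose by 1.03 (SE 0.09) and Mnx1 by 0.60 (SE 0.12), while Rfx6 fell by 0.38 (SE 0.08) and St18 by 0.33 (SE 0.08). Pdx1 rose by 0.28 (SE 0.09, adjusted p = 0.039), a call that 10 alternatives ended. Nkx6-1, Mafa, Neurod1 and Hnf4a differed by -0.15, 0.23, 0.00 and 0.10 and were not called. Under quantile normalization 4 of the 20 fell, and with median centring 1.

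In stimulus-secretion coupling, Glp1r, the receptor of the incretin GLP-1, rose by 0.35 (SE 0.07) from 11.4, 11.5, 11.6 and 11.5 to 11.9, 11.9, 11.8 and 11.8, a call that quantile normalization ended (0.19, adjusted p = 0.0645). The glucose transporter gene Slc2a2 and the KATP channel genes Abcc8 and Kcnj11 differed by -0.18, 0.00 and 0.08, none of them called. Beyond Lrrc55 and Glp1r no other member of the 29 rose, and Rgs2, Rgs16 and Lrrc52 fell. Under quantile normalization 1 rose and 5 fell. Akt1, a kinase of insulin and growth factor signalling, rose by 0.78 (SE 0.06) from 9.4, 9.4, 9.5 and 9.4 to 10.1, 10.2, 10.2 and 10.3. It led the 3 of 20 regulators of beta-cell growth in pregnancy that rose, and 1 rose with the array SD as a covariate. In the same list Hbegf and Bmp4, both growth factor genes, fell by 0.28 each and the median was -0.03. The falls numbered 4 with array weights, 1 without day 18.5 replicate 1 or 3 or non-pregnant replicate 3, and 0 without day 18.5 replicate 4 or non-pregnant replicate 2.

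Markers of other islet cell types fell in several members, beside 2.5% of all genes falling. Glucagon (Gcg) differed by 0.10 (SE 0.12), and by -0.15 (SE 0.06, adjusted p = 0.0966) without non-pregnant replicate 1. Somatostatin (Sst) of delta cells read 12.9, 13.7, 13.7 and 13.7 against 13.5, 13.3, 13.5 and 13.4. Its difference of -0.08 (SE 0.11) was not called, but without non-pregnant replicate 1 it was -0.28 (SE 0.07, adjusted p = 0.0135) and under quantile normalization -0.17 (adjusted p = 0.0334). Of 6 delta-cell markers 3 fell (Casr, Rbp4 and Pdyn, by 0.28, 0.43 and 0.63). Without day 18.5 replicate 2 or non-pregnant replicate 2, 1 of them fell, and with only the groups compared none. Of 8 alpha-cell markers Slc7a2, an arginine transporter, fell by 0.50 (SE 0.08) and Irx2 by 0.25, of which 1 fell without any single day 18.5 array or without non-pregnant replicate 2 or 3, and 4 fell under quantile normalization. Ppy of PP cells and Ghrl of epsilon cells differed by 0.00 and -0.08.

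Markers of cells outside the endocrine islet showed few calls, against 8.59% of all genes rising. Of 18 endothelial markers Plvap rose by 0.33 (SE 0.11), a call that 11 alternatives ended, of 22 macrophage and dendritic markers C1qa rose by 0.80 (SE 0.11), and of 10 duct markers Krt18 rose by 0.85 (SE 0.10). None of 22 stellate and fibroblast and none of 16 lymphocyte markers was called. The acinar list had a median difference of 0.38, and apart from Bhlha15 none of its members was called. With the acinar mean of each array as a covariate 2075 genes were called in place of 2210.

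Cell cycle genes lay between the non-pregnant and the mid-pregnant level. Of 31 measured genes of mitosis and the G2 phase 10 rose over non-pregnant islets and none fell (median 0.20). Of all genes 8.59% rose and 2.5% fell. Top2a, a topoisomerase of dividing cells, read 5.5, 5.8, 5.7 and 5.4 against 6.2, 6.3, 6.2 and 6.5 (0.70, SE 0.16, adjusted p = 0.00318). Over the alternatives its difference ranged from 0.34 to 0.77, and the array SD as a covariate ended the call (0.43, limma adjusted p = 0.154). Mki67, the gene of the Ki-67 antigen, read 5.4, 5.5, 5.8 and 5.9 against 6.0, 6.4, 5.9 and 6.4 (0.53, SE 0.14, adjusted p = 0.00949), with 1 shared value between the groups. Plk1 rose by 0.50 (SE 0.09), while Cdk1, Aurkb and Foxm1 differed by 0.20, -0.03 and 0.15 and were not called.

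Of 30 S-phase genes 5 rose, beside 8.59% of all genes. They were Rrm2 and Pcna, at 0.65 (SE 0.11) and 0.55 (SE 0.10), Fen1 and E2f1, at 0.58 each, and Mcm3 at 0.40. The Mcm3 call (limma adjusted p = 0.0467) was ended by 10 alternatives. The mitotic count was not firm. It was 3 without day 18.5 replicate 4, 6 without non-pregnant replicate 4 and 1 with the array SD as a covariate, while the S-phase count was 4 with that covariate. Among cyclins and their inhibitors, Ccnd1 rose by 0.35 (SE 0.10), and Ccnd2 and Cdkn1b differed by -0.08 and 0.05. Men1, the menin gene, which restrains beta-cell growth, rose by 0.33 (SE 0.08), a call that quantile normalization and the array SD ended. Myc, a growth-promoting transcription factor chosen after its value was seen, rose by 1.15 (SE 0.22).

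Against mid-pregnancy, genes of the cell cycle were lower. Of 252 genes called between day 18.5 and the mean of days 9.5, 12.5 and 15.5 (1.26% of 19938), 161 were higher (0.808%) and 91 lower (0.456%), and with the array SD as a covariate 72 were higher and 86 lower. Of the 31 mitotic genes 21 fell and none rose (median -0.39), and of 30 S-phase genes 10 fell (median -0.25), against a median of 0.01 over all genes. Top2a fell by 0.76 (SE 0.13) and Tpx2, a spindle assembly factor, by 0.61 (SE 0.12). With the mean of its probe sets Top2a differed by -0.33 and was not called (limma adjusted p = 0.075). Ect2, needed for cytokinesis, fell by 0.76 (SE 0.09) and at day 18.5 stood at 5.7, 6.0, 5.7 and 6.0, overlapping the non-pregnant values of 5.8, 5.6, 5.9 and 5.7. Pcna, Fen1 and Rrm2 were not called against mid-pregnancy.

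The mean level of the mitotic list over its 31 genes was 5.12 to 5.24 on non-pregnant arrays, 6.0 to 6.26 on day 9.5 arrays, 5.55 to 5.66 on those of day 15.5 and 5.29 to 5.49 on those of day 18.5. These 4 ranges did not overlap each other, but 10 days post partum the range was 5.24 to 5.46, which overlapped that of day 18.5. In the S-phase list the day 18.5 range of 6.18 to 6.34 lay above the non-pregnant one (6.02 to 6.08) and overlapped that of day 15.5 (6.30 to 6.39). The number of calls depended on single arrays: 7 mitotic and 2 S-phase genes fell without day 18.5 replicate 1, and 13 and 4 without replicate 3. Quantile normalization left 12 mitotic falls, and the array SD 19. The acinar covariate left 6 S-phase falls. Over all genes, 77 were called against mid-pregnancy without day 18.5 replicate 1, 101 without replicate 3 and 127 without replicate 4.

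**Figure D4:**
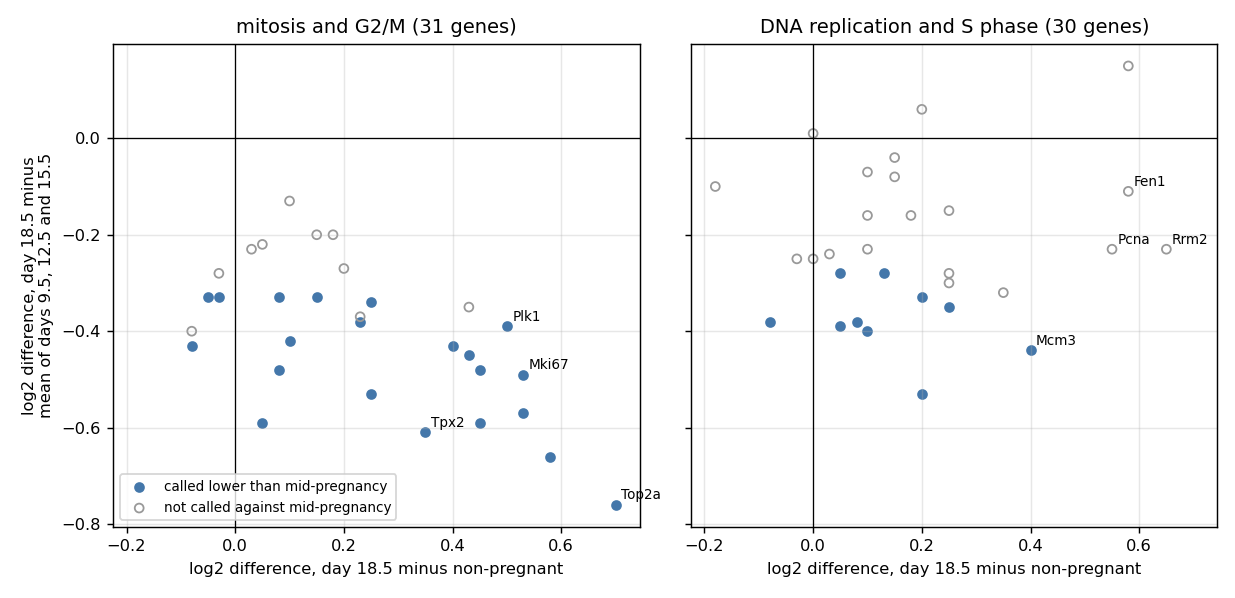
Each point is a gene of the mitosis list (left, 31 genes) or the S-phase list (right, 30 genes), with its log2 difference from non-pregnant islets on the x axis and from mid-pregnancy on the y axis; filled points were called lower than mid-pregnancy (21 and 10). Most genes lie in the lower right, above the non-pregnant and below the mid-pregnant level, with Top2a at 0.70 and -0.76; both axes use the same day 18.5 arrays.

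Several of the leading genes were higher at day 18.5 than in mid-pregnancy. In 11 of the 15 largest rises over non-pregnant islets day 18.5 alone had the highest mean of the 8 C57bl6/J groups. Matn2 had the same mean of 10.38 post partum, Tnfrsf11b the same mean of 8.28 at day 15.5, and Tph1 and Lrrc55 were highest in other groups. The 15 were picked for high day 18.5 values against non-pregnant islets, so the choice itself favours day 18.5 as the highest group. The share over all genes was not counted. The differences from non-pregnant islets and from mid-pregnancy use the same 4 day 18.5 arrays. Lrrc55 climbed from 7.40 ± 0.54 (SD, n = 4) on day 9.5 through 8.95 ± 0.25 on day 15.5 to 9.58 ± 0.13 on day 18.5, a rise of 1.32 over mid-pregnancy (SE 0.14, adjusted p = 1.37e-06). Fbxw24 stood at 5.03 ± 0.19 at day 15.5 and 6.13 ± 0.10 at day 18.5 (1.46 over mid-pregnancy, SE 0.15).

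Igfbp5 was higher than in mid-pregnancy by 0.97 (SE 0.11) and Lrrc8c by 0.90 (SE 0.17). Sv2b, a synaptic vesicle protein gene, was higher by 0.95 (SE 0.10), with 7.7, 7.2, 7.5 and 7.5 at day 18.5 and 6.4, 6.7, 6.5 and 6.4 in non-pregnant islets. Adgrg6, an adhesion G protein-coupled receptor gene, was higher by 0.94 (SE 0.12), Acvr1c, the activin and nodal receptor ALK7, by 0.78 (SE 0.10), and Myo3a, an actin motor gene, by 0.68 (SE 0.11). These 8 genes, with Lrrc55 and Fbxw24 among them, were picked as the largest rises over mid-pregnancy among called genes whose arrays do not overlap. That their day 18.5 arrays lay above all 12 mid-pregnancy arrays was thus a criterion of the choice. Of all genes 0.602% showed such a separation in either direction.

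Other genes had risen by day 9.5 and were not called against mid-pregnancy. Tph1 stood at 8.58 ± 0.39 (day 9.5), 9.43 ± 0.42 (day 12.5) and 8.90 ± 0.16 (day 18.5), and its difference from mid-pregnancy was -0.20 (SE 0.18, adjusted p = 0.652). Tph2, Cish, Socs2 and Chgb differed from mid-pregnancy by 0.09, -0.03, 0.16 and 0.05, none of them called. Rgs2 was lowest at day 15.5 (7.10 ± 0.28) and stood at 7.43 ± 0.26 at day 18.5, and it was not called against mid-pregnancy (-0.28, SE 0.22).

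**Figure D5:**
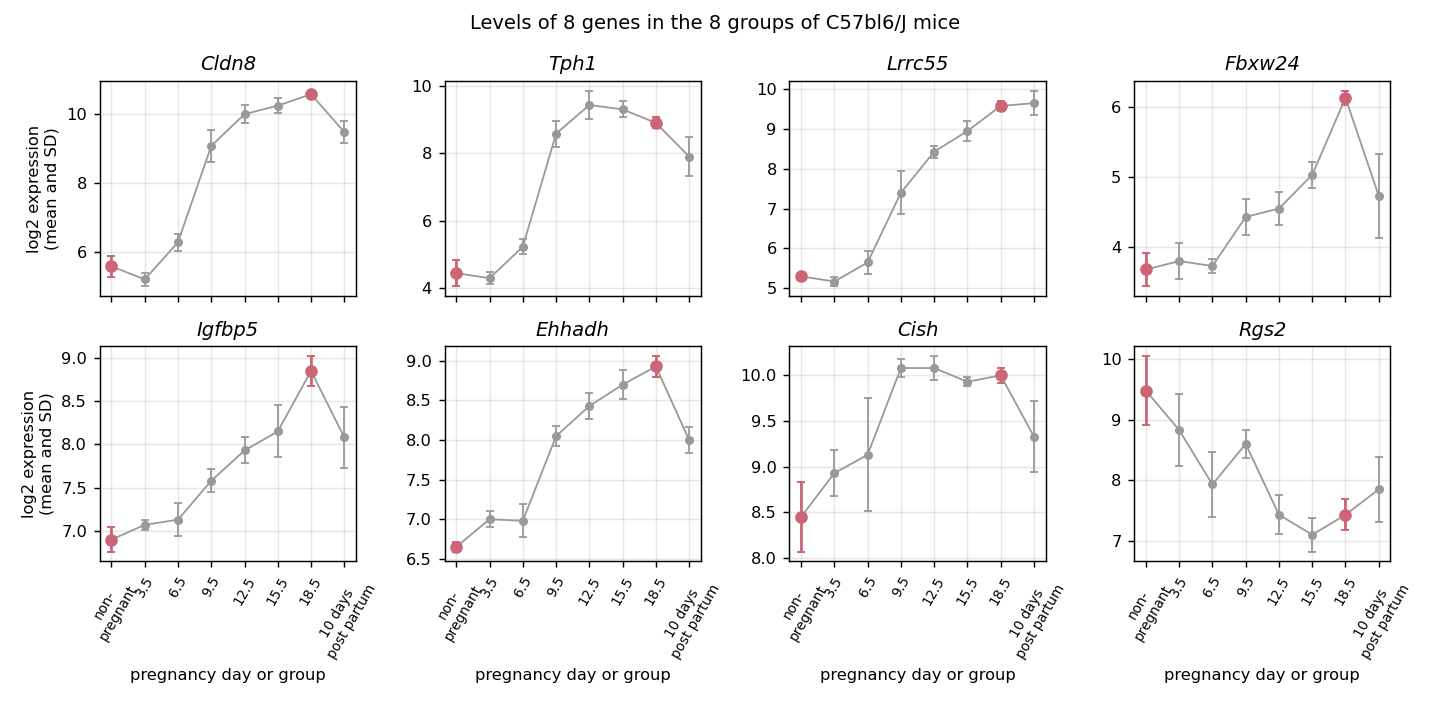
Mean log2 expression value and SD (y axis) of 8 genes in the 8 groups of C57bl6/J mice (x axis; 4 arrays per group, 3 at day 3.5), with non-pregnant and day 18.5 in red. Fbxw24 and Igfbp5 are highest at day 18.5 with means of 6.13 and 8.85, Cish stands at 10.08 at day 9.5 and 10.00 at day 18.5, and Lrrc55 at 9.65 post partum and 9.58 at day 18.5.

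Against 10 days post partum, 6014 genes (30.2%) were called, 3659 higher at day 18.5 (18.4%) and 2355 lower (11.8%). With arrays centred on their medians 4175 were higher and 1533 lower. This count moved with the scaling of the arrays: with the array SD as a covariate 12 genes were called, and under quantile normalization 1979. The array SD was 1.74 to 1.82 post partum and did not overlap that of day 18.5, and array width and group cannot be told apart here. Cldn8 was higher at day 18.5 by 1.10 (SE 0.18), Fbxw24 by 1.40 (SE 0.18), Sv2b by 1.15 (SE 0.13) and Tph1 by 1.00 (SE 0.22). Lrrc55 and Matn2 differed by -0.08 (SE 0.17) and 0.00 (SE 0.12) and were not called. Without day 18.5 replicate 4 or post partum replicate 4, 3637 and 3553 genes were called.

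Genes of microRNAs, short RNAs that silence messenger RNAs, were mostly lower where they changed. This group was formed after the values were seen. Of 300 microRNA genes on the array 35 fell and 1, Mir100, rose by 0.53 (SE 0.15), beside 2.5% of all genes falling and 8.59% rising. Their median difference was -0.15 and their median level 4.76, against an upper limit of 4.93 for the dimmest 25% of genes, of which 1.32% fell. In the imprinted region of chromosome 12 between Dlk1 and Dio3 (chr12:109452485-110281097), 13 of 40 fell and none rose (median -0.33), against 22 falls and 1 rise among the other 260 (median -0.13). The array's probe sets carry gene names, not those of the mature arms, and may detect precursor or host transcript.

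The mature sequences of the 3 genes of that region with the lowest adjusted p are shown to identify them, from RefSeq, with the seed (bases 2 to 8) in capitals.
mmu-miR-341-3p: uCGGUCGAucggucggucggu
mmu-miR-341-5p: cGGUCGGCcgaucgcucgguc
mmu-miR-540-3p: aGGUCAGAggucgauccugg
mmu-miR-540-5p: cAAGGGUCacccucugacucugu
mmu-miR-667-3p: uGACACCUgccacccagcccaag
mmu-miR-667-5p: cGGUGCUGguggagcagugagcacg
No 2 of these arms share a seed. Mir341 read 9.3, 9.1, 9.0 and 9.2 in non-pregnant islets against 8.3, 8.8, 8.7 and 8.6 (-0.55, SE 0.11, adjusted p = 0.000615). Mir540 fell by 0.55 (SE 0.11) and Mir667 by 0.53 (SE 0.11), and in all 3 the groups did not overlap. Meg3 and Rian, noncoding RNA genes of the same region, differed by -0.30 and -0.28 and were not called.

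The microRNA count was not firm. With the array SD as a covariate 7 of the 300 fell, 5 of them in the region, and with median centring 20. Array weights gave 60 falls. Leaving out day 18.5 replicates 1, 3 or 4 gave 16, 22 and 17, and leaving out non-pregnant replicates 2 or 4 gave 21 and 23.

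Genes of the clock and of acute stimulation fell in a few members, 3 of 17 in the case of the clock. Of all genes 2.5% fell and 8.59% rose. Per1 read 7.7, 7.7, 7.7 and 7.8 against 7.1, 7.0, 7.4 and 7.0 (-0.60, SE 0.10, adjusted p = 0.00012), and Cry2 fell by 0.60 (SE 0.12), both repressors of the circadian clock, while Arntl, Clock and Dbp were not called. The remaining fall was Nfil3, by 0.40 (limma adjusted p = 0.0494), a call that 13 alternatives ended. The time of day at which islets were taken is not given in the sources used here. Of 29 immediate-early genes 5 fell, among them Dusp1 and Npas4 at -0.50 each, and 2 rose, with Jun at 0.68 (SE 0.10). The falls numbered 2 without day 18.5 replicate 1 or non-pregnant replicate 3, 3 without day 18.5 replicate 4 and 1 with the array SD as a covariate.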

How the data were processed

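Total RNA of mouse islets was hybridised to 39 Affymetrix Mouse Gene 1.0 ST arrays, 1 per sample. The deposited log2 values, given to 1 decimal, were made by the authors with RMA in Affymetrix Expression Console, per the submitters' processing notes; which arrays were normalized together is not given in the sources used here. No further normalization was applied. Of 35556 probe sets, 21789 had 1 gene symbol, 1621 several and 12146 none; only the first kind was used, with the brightest probe set for the 999 genes that had more than 1.

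The 31 C57bl6/J arrays were fitted with limma 3.58.1 (R 4.3.3), 1 mean per group, lmFit and eBayes, and two-sided p-values were adjusted by Benjamini-Hochberg over 19938 genes at a threshold of 0.05. Every adjusted p in the text is limma's. P-values measure the spread between arrays, and the number of arrays limits precision. Genes are named by this rule: the 15 largest rises and 10 largest falls against non-pregnant islets and the 8 each way against the other groups, among called genes whose arrays do not overlap; up to 5 called members of each of 48 gene lists; and a set of pathway genes whatever their result. Genes named outside it were chosen after their values were seen, except for list members given as not called. Members and lists were chosen with earlier results of these data known. Names and sequences were matched to RefSeq, GRCm38.p6 (19856 genes). On simulated data the fit called 100% of genes changed by 1 log2 unit and 82% of those changed by 0.5 between day 18.5 and non-pregnant arrays, and 6.19% of its calls were unchanged genes. The simulation changed 200 genes, drew noise independently for each gene and held no shift of whole arrays or with brightness. The real arrays differ in SD between groups, so these shares do not give the reliability of the real calls. Alternatives covered normalization, centring, filtering, variance model, array weights, arrays fitted, acinar content and array SD as covariates, probe sets per gene (their mean, or every probe set), a replicate block, and leaving out each array.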

Additional observations from a re-analysis of the deposited data

Results flagged for a closer look

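Single arrays stood apart from the other 3 of their group in several named genes, by Dixon's criterion for 4 values. Chance flags about 1 in 20 groups, and since values carry 1 decimal, a lone step of 0.1 beside 3 equal values is enough. Non-pregnant replicate 1 was the low array for Ins2 (11.9), Iapp (13.0), Gcg (13.0) and Sst (12.9), each 0.8 or more below the other 3, and for Slc2a2 (11.8). Other low or high non-pregnant values were 5.2 for Foxm1, 8.8 for Cdkn1b, 9.8 for Nkx6-1 and 10.5 for Xist, the X-inactivation RNA. At day 18.5 the values that stood apart were 11.8 for Ivd, 6.1 for Piga, 7.3 for Stat5a, 12.1 for Ccnd2, 7.5 for Hnf4a and 11.7 for Slc2a2. Without non-pregnant replicate 1 the difference of Sst was -0.28 (limma adjusted p = 0.0135) and that of Ins2 0.00.

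Islets of day 18.5 differed from those of mid-pregnancy in 252 genes by limma's test of that difference, with mitotic genes lower and Fbxw24, Lrrc55 and Igfbp5 higher.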

How the results depend on the processing

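Of 227 named genes called against non-pregnant islets 135 kept their call under every alternative that included them, 92 lost it under at least 1, and none reversed. Of 196 not called, 28 were called under some. Genes in the dimmest 25% were not tested where those were left out. Against non-pregnant islets 2210 genes became 1174 with the array SD as a covariate and 1433 to 2504 when 1 array was left out. Against mid-pregnancy 252 became 139 with quantile normalization, 156 with median centring, 674 with array weights and 158 with the array SD, and 77 to 290 without 1 array. Against 10 days post partum 6014 became 1979 with quantile normalization, 12 with the array SD, and 3553 to 7116 without 1 array. The cause was not tested. The share of calls higher at day 18.5 was 77.5% against non-pregnant islets, 56.3% with quantile normalization, 89.8% with median centring (1964 rises and 222 falls) and 61% with the array SD. Against mid-pregnancy it was 63.9%, with 73.3% without the dimmest genes, 70.5% with trend and robust and 45.6% with the array SD. Post partum it was 60.8%, with 73% without the dimmest genes, 73.1% with median centring and 41.7% with the array SD. Deviations of same-numbered arrays from their group means correlated between day 18.5 and other groups at -0.235 to 0.041 (non-pregnant), -0.106 to 0.205 (day 9.5), -0.222 to 0.044 (day 12.5), -0.019 to 0.289 (day 15.5) and -0.023 to 0.172 (post partum). In no group did every pair pass 0.1, so the numbers were taken as names only. None of the 4 day 18.5 arrays correlated best with its own number among non-pregnant arrays, and 3 did among those of day 9.5. With the replicate block, 2223 genes were called against non-pregnant islets, 240 against mid-pregnancy and 6044 post partum. List counts and the microRNA family under these settings, and hormones without non-pregnant replicate 1, were chosen after seeing the data. Genes near the top of the range, such as Ins2, respond less to a change, and 4 arrays per group limit the precision of every value.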

Other observations

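The list counts in this section stand beside 8.59% of all genes rising and 2.5% falling. Few hormone-responsive genes were called, and in both directions. Of 15 measured genes responding to glucocorticoids, progesterone or oestrogen, Esr1, the oestrogen receptor alpha gene, rose by 0.73 (SE 0.09), and Fkbp5, a glucocorticoid-induced chaperone partner, fell by 0.50 (SE 0.14), as did Per1. Without non-pregnant replicate 3 or 4, 1 of these falls was called. In glycolysis 5 of 15 genes rose, among them Pfkp (0.40), Slc2a1 (0.38) and Tpi1 (0.35), while the hexokinase gene Hk2 fell by 0.35. With quantile normalization 2 of the 15 rose, and none with the array SD as a covariate. Of the 15, 10 were among the 4985 brightest genes, of which 21.8% rose. Hk2 was also the 1 gene called among 20 that beta cells normally keep low. Of 37 mitochondrial ribosome genes, 12 of them among those brightest genes, 6 rose, led by Mrpl42 (0.63, SE 0.14). That count was 1 with quantile normalization or the array SD, and 3 without day 18.5 replicate 1, day 18.5 replicate 3 or non-pregnant replicate 4.

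Of 15 D cyclins, their kinases and inhibitors, Cdk4 and Cdkn2c rose by 0.25 and 0.43 besides Ccnd1, and Cdkn2a fell by 0.28. Of these 3 rises, the count was 1 with quantile normalization and without day 18.5 replicate 1, day 18.5 replicate 3 or non-pregnant replicate 4, and 0 with the array SD, which also left no fall. Mcl1, a survival gene, rose by 0.30 as the 1 call among 19 apoptosis genes, and Tap2, a peptide transporter, by 0.33 as the 1 among 15 antigen presentation genes. Neither share exceeded the 11.1% of all genes that were called. Among markers of other cells, Kit fell by 0.50 (1 of 14 neutrophil and mast cell markers), Lpl by 0.53 (1 of 9 adipocyte) and Etv1 by 0.53 (1 of 5 PP and epsilon cell). These are single genes of short lists, beside 2.5% of all genes falling. Of 11 neural and Schwann markers S100b fell by 0.28, although the list's median was 0.20. Quantile normalization, the array SD and leaving out any of day 18.5 replicates 3 and 4 and non-pregnant replicates 2, 3 and 4 left no fall, and median centring gave 3 rises. Tfrc, the transferrin receptor gene, rose by 0.43 as 1 of 5 erythroid markers. Of 8 lymph node and mesothelial markers Gpm6a rose by 0.33 and Lrrn4 fell by 0.25.

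In 2 gene families outside the lists, picked after the values were seen, some members rose while others were not called. Of 5 measured flavin monooxygenase genes, which oxidise drugs and sulfur compounds, Fmo1, Fmo4 and Fmo2 rose, the last 2 by 1.40 and 1.35, and Fmo5 and Fmo9 differed by -0.13 and -0.08. Fmo1 read 6.0, 6.1, 6.0 and 6.0 in non-pregnant islets against 7.5, 7.4, 7.4 and 7.8 at day 18.5. Of 16 carbonic anhydrase genes, which interconvert carbon dioxide and bicarbonate, Car15, Car5b and Car8 rose by 1.63, 1.53 and 1.45 and Car12 fell by 0.28.

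The genes of 3 neuropeptides, picked after the values were seen, rose, whereas that of another, Pdyn of the delta-cell list, fell. The Pdyn call (limma adjusted p = 0.032) was ended by 9 alternatives. Vip, which encodes vasoactive intestinal peptide, read 7.4, 7.8, 8.1 and 5.9 against 9.3, 8.5, 9.1 and 8.8 (1.63, SE 0.32, limma adjusted p = 0.000606). Tac1, the substance P gene, read 5.2, 4.9, 5.7 and 4.1 against 6.5, 6.1, 6.7 and 6.0, a difference of 1.35. Non-pregnant replicate 4 was the lowest array for both, and with the array SD as a covariate Tac1 differed by 0.99 and was not called (limma adjusted p = 0.11). Grp, the gastrin-releasing peptide gene, rose by 1.05. The 11 neural and Schwann markers had a mean level of 6.07 to 6.34 on non-pregnant arrays and 6.29 to 6.49 at day 18.5. Genes of neurons, Prph, Tubb3, Nefl and Stmn2, differed by 0.50, 0.43, 0.65 and 0.70 and were not called. Nefl and Stmn2 are outside that list and were picked after their values were seen. Th and Gap43, on the list with Prph and Tubb3, differed by 0.23 and -0.03 and were not called, and the list's median was 0.20. Non-pregnant replicate 4 was the lowest array for Prph, Tubb3 and Stmn2 too, and the part of neural cells in these rises was not tested. Secreted products that rose included Sftpd, a surfactant lectin (1.78), and Prok1, a prokineticin (1.70).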
